A study of Homo sapiens with 75 samples.

Results

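Messenger RNA was compared between 3 arrays of cells labelled HepG2 and collected 6 h after 5 Gy of ionising radiation (IR) and 3 arrays of the same labelled line collected 3 h after the same dose. These 6 of the series' 75 arrays were chosen by their labels for cell line, treatment and time, and no measured value entered the choice. HepG2 is a hepatoblastoma-derived liver cell line. The 9 other arrays labelled HepG2 came from mock-irradiated cells at 0 h, 3 h and 6 h, 3 arrays each, and no drug or genetic change is named for any group. The other 60 arrays came from 4 further lines treated in the same way, namely U2OS (osteosarcoma), BJ (skin fibroblasts), G361 (melanoma) and TK6 (B lymphoblastoid cells). All arrays were 1-colour oligonucleotide arrays, and each value is a log2 level that the authors summarised and normalized. The comparison addressed how transcript levels differed between the earlier and the later time after irradiation.

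Double-strand breaks made by radiation activate the kinase ATM, which stabilises the transcription factor p53. p53 then raises the transcription of genes for cell cycle arrest, DNA repair, cell death and its own negative feedback. Through the p21 protein and the DREAM repressor complex, the same pathway lowers genes of G2 and mitosis, many of which carry a cell cycle homology region (CHR) and CCAAT boxes just upstream of their start. A p53 binding site consists of repeats of a shorter degenerate element, here called the p53 element.

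The label was set against tissue markers before the time points were compared. Of 16 hepatocyte markers 15 were measured, and 6 of them lay above the level limit of 3.47 log2 below which genes were not tested. Their mean was 3.47 to 3.57 log2 in the arrays at 3 h and 3.53 to 3.61 at 6 h, whereas it was 3.98 to 4.28 in the 15 U2OS arrays. Albumin (ALB) stood at 2.92 log2 at 3 h and 2.75 at 6 h, and the serum protease inhibitor SERPINA1 at 3.28 and 3.07. The fetal liver protein AFP stood at 5.59 and 6.04. By contrast, the collagen gene COL6A3 stood at 11.22 and 11.33, and the osteoblast transcription factor gene RUNX2 at 9.09 and 9.02. Over the 15 arrays labelled HepG2, 10 of the 15 fibroblast markers lay above the level limit, as did 3 of 6 measured osteoblast markers. By each line's own limit, 8 fibroblast markers passed in G361 and in TK6, 13 in U2OS and 15 in BJ. Of the osteoblast markers 3 passed in U2OS, BJ and G361 and 2 in TK6. Of all 19775 genes, 14369 passed in the arrays labelled HepG2, so these counts alone do not set the line apart. TWIST2 stood at 7.93 and 7.76, COL5A1 at 6.30 and 6.23, and the osteoblast list gene SPP1 at 6.90 and 7.12. The collagen gene COL3A1 stood low at 2.88 and 3.02, as did LUM at 2.05 and 2.28. Also low were the osteoblast genes SP7 at 2.94 and 3.00 and ALPL at 3.29 and 3.32. The marker means of melanocytes, B cells and fibroblasts in these 6 arrays did not reach the lowest arrays of G361 (11.12), TK6 (8.02) and BJ (10.95), respectively. The osteoblast mean was 4.79 to 4.90 at 3 h and 4.82 to 5.02 at 6 h, which overlapped the 4.83 to 5.17 of the U2OS arrays. The hepatocyte markers therefore did not bear out the label, and the arrays are called by their label only.

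The 15 arrays labelled HepG2 had medians of 3.91 to 3.99 log2, and no pair was identical. Their upper quartiles spread more widely, from 6.00 to 6.41. Arrays correlated at 0.990 to 0.994 among the irradiated arrays at 3 h, at 0.993 to 0.995 among those at 6 h, and at 0.990 to 0.994 between the times. The 5′ minus 3′ difference of the actin control, a sign of RNA or labelling quality, was -0.70 and -0.58 log2 in replicate 1 at 3 h and 6 h. In replicates 2 and 3 it lay between -0.99 and -0.94. The labels leave unsaid whether the replicates are separate cultures. The p-values therefore reflect array-to-array spread alone, possibly technical. With 3 arrays a group the number of arrays limits the precision.

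At 6 h after irradiation, targets of p53 stood higher and genes of G2 and mitosis lower than at 3 h. Of 14369 genes tested, 57 rose (0.397%) and 61 fell (0.425%) at a Benjamini-Hochberg adjusted p under 0.05 in limma, and 31 of these 118 differed at least 2-fold. In all 118 the 3 arrays of one time lay apart from the 3 of the other, as did 1040 genes higher at 6 h (7.24%) and 671 lower (4.67%) whatever their call. The median difference over all genes was 0.02 log2. Of the 57 genes that rose, 21 were in a list of 48 p53 targets, and of the 61 that fell, 36 were in a list of 50 genes of G2 and mitosis. With the replicate number as a block, which pairs the arrays of 1 number, 195 genes were called. Without replicate 1 at both times 421 genes were called, without replicate 2 the number was 33, without replicate 3 it was 31, and without the single array of replicate 3 at 6 h it was 77. In these bulk samples a smaller share of cells with a transcript and less of it per cell cannot be told apart.

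**Figure D1:**
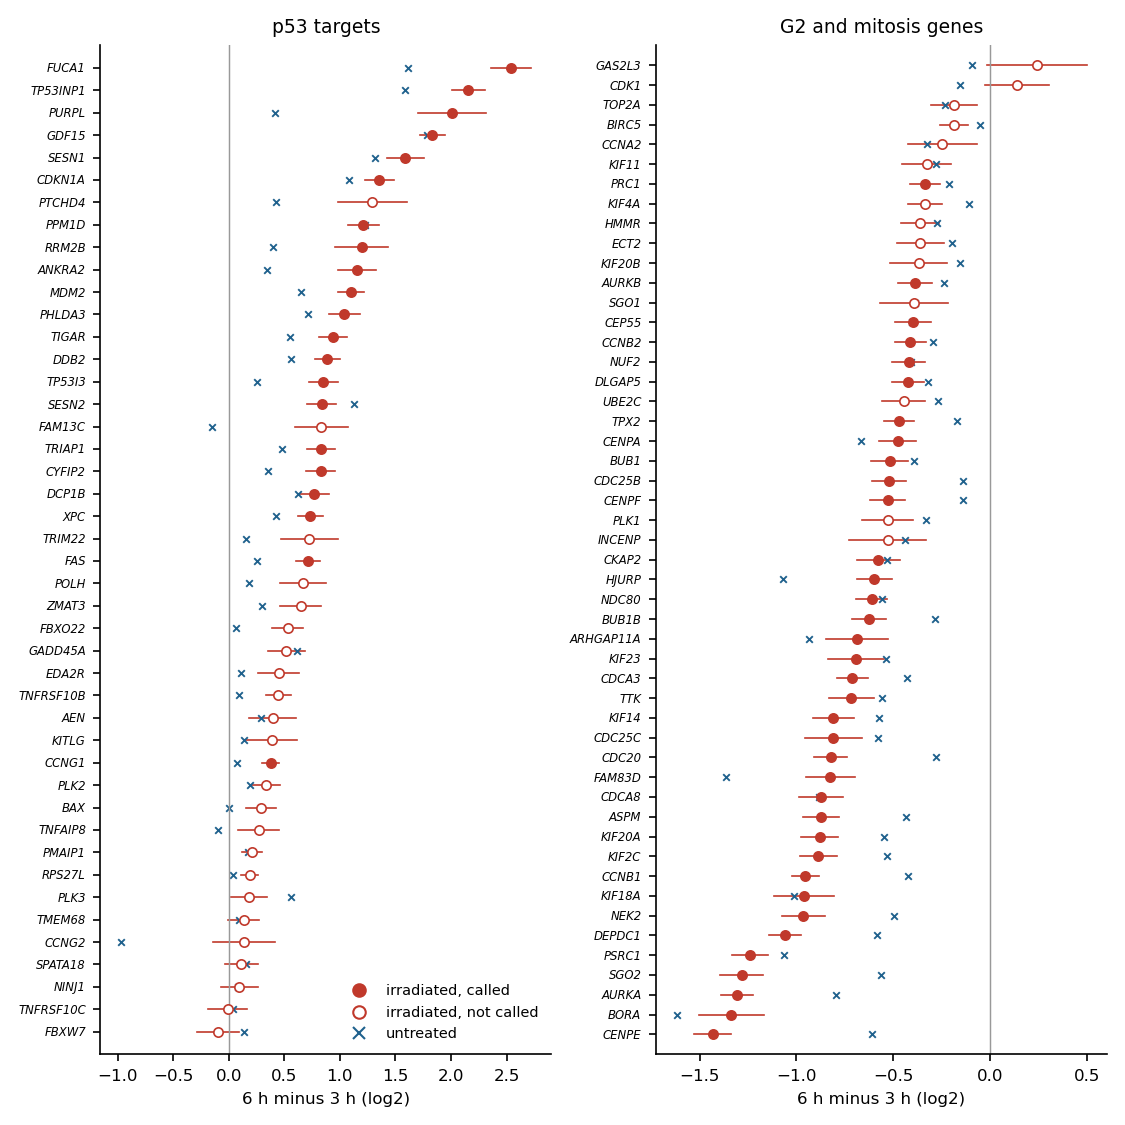
Irradiated 6 h minus 3 h difference (log2, x axis) of the 44 tested p53 targets (left) and 50 G2 and mitosis genes (right), with bars of 1 standard error, filled where called at adjusted p under 0.05, and the untreated difference as a cross. The p53 targets run from -0.09 to 2.54 and the mitotic genes from -1.43 to 0.24.

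Upstream sequence is shown first for genes that fell, because the CHR and CCAAT elements were more frequent there than in all promoters. The searched window was the 250 bases before each RefSeq start (GRCh38.p14), on both strands, for 16548 promoters of 11472 of the 14369 tested genes. A CHR core (TTTGAA or TTTAAA) was present in 30 of the 62 promoters of the genes that fell (48.4%), against 15.8% of all promoters. CCAAT was present in 66.1% of them, against 32.4%, and both together in 43.5%, against 5.77%. For the genes that rose the share with both was 3.8% of 79 promoters. The following windows belong to 5 genes that fell, all with a CHR core. Among the 15 largest falls, the windows of KIF2C and TNFAIP8L1 held neither element, and those of NEK2 and PSRC1 held CCAAT alone. Capitals mark CHR cores and CCAAT on either strand, so that ATTGG and TTCAAA are reverse matches.
CCNB1 (chr5:69166900-69167149, + strand): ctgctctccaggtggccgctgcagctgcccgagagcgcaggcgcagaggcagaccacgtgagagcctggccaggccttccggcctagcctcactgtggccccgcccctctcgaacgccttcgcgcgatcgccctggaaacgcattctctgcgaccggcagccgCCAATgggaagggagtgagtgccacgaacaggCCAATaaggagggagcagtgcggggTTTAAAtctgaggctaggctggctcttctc
KIF20A (chr5:138178862-138179111, + strand): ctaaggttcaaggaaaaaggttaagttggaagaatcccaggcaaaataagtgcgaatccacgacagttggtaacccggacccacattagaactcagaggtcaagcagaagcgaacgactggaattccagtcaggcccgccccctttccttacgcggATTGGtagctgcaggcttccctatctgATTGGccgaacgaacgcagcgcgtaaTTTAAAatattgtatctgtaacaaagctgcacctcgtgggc
CDCA8 (chr1:37692266-37692515, + strand): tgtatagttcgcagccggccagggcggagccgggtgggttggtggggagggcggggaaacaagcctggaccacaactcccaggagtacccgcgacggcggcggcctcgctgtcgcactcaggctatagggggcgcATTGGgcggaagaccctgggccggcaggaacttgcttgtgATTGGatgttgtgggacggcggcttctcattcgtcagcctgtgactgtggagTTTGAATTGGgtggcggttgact
DEPDC1 (chr1:68497083-68497332, - strand): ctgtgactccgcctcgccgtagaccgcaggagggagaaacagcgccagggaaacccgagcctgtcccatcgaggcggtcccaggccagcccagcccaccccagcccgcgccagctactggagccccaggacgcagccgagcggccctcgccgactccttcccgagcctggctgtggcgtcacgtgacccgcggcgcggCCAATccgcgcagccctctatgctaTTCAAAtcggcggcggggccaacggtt
CENPE (chr4:103198344-103198593, - strand): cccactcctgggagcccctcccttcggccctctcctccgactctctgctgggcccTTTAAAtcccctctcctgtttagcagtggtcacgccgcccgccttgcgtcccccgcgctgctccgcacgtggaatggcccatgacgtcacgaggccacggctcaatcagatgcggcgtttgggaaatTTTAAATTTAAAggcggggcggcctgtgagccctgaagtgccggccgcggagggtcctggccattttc

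In the CCNB1 window a CHR core lay 30 to 25 bases before the start, with CCAAT at -87 to -83 and at -55 to -51. KIF20A had the same arrangement with the CHR core at -41 to -36 and reversed CCAAT at -94 to -90 and -67 to -63. In CDCA8 the CHR core at -23 to -18 shared a base with a reversed CCAAT at -18 to -14. DEPDC1 held 1 CCAAT at -52 to -48 and a reversed CHR core at -27 to -22. CENPE differed, with CHR cores at -195 to -190, -68 to -63 and -62 to -57 and no CCAAT in this window. Such matches describe letters and were not tested for binding.

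The p53 element was found in 4.86% of all promoters, in 5.06% of the 79 promoters of the genes that rose and in 7 of the 56 promoters (12.5%) of the p53 targets. It was also found in 9.68% of the promoters of the genes that fell and in 9.26% of those of the G2 and mitosis genes. The share among genes that rose was thus near that of all promoters in this window. PURPL and a SESN1 promoter are shown because both genes rose and these windows hold the element, in capitals.
PURPL (chr5:27472042-27472291, + strand): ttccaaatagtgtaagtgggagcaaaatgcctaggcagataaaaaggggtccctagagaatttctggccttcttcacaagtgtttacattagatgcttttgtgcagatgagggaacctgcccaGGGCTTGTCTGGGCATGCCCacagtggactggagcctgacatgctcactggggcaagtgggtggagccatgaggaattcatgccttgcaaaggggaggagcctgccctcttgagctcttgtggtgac
SESN1 (chr6:109008989-109009238, - strand): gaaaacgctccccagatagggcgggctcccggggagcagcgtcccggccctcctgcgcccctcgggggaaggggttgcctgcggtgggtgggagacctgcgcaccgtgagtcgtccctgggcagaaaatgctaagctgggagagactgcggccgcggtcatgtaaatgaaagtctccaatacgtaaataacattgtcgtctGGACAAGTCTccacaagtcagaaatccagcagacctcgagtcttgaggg

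In PURPL the elements GGGCTTGTCT at -127 to -118 and GGGCATGCCC at -117 to -108 adjoined each other with no base between. In this SESN1 window, 1 of 3 promoters of the gene, a single element, GGACAAGTCT, lay at -49 to -40. The windows of FUCA1, GDF15 and CDKN1A held none, which says only that these letters are not within 250 bases.

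Among the p53 targets, 45 of 48 had a value and 44 passed the level limit. Of these 44, 21 rose and none fell, 42 had a positive difference, and in 31 the times did not overlap. Over all 14369 genes, 8211 had a positive difference and 7.24% lay higher at 6 h without overlap. The median difference was 0.72 log2, beside 0.02 for all genes, and 0.397% of all genes were called higher. The list was written with earlier results of these data known, so its direction is a description. Under the replicate block 29 members were called higher, and without replicates 1, 2 or 3 the numbers were 33, 10 and 12.

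The largest rise was that of FUCA1, the gene of a lysosomal fucosidase. It stood at 6.27, 6.78 and 6.62 log2 in replicates 1, 2 and 3 at 3 h and at 8.98, 9.26 and 9.05 at 6 h. All arrays at 6 h thus lay more than 2 log2 above the highest array at 3 h. The difference was 2.54 ± 0.18 log2 (SE, n = 3 arrays a group), a 5.81-fold rise (limma adjusted p = 3.75e-08), and 1.435 on the mean of its probe sets. TP53INP1, a p53-inducible nuclear protein that promotes cell death and autophagy, stood at 6.11, 6.12 and 6.06 at 3 h and at 8.29, 8.21 and 8.26 at 6 h. Its replicates lay close together at both times, and it rose by 2.16 ± 0.15 (adjusted p = 3.44e-08). Of its 2 other probe sets 1 had the opposite sign, and the mean of all its probe sets rose by 0.84.

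GDF15, a secreted stress cytokine of the TGF-beta family, had the smallest adjusted p of all genes. It stood at 8.84, 8.86 and 8.84 log2 at 3 h and at 10.66, 10.71 and 10.67 at 6 h, which put the groups far apart with little spread in either. It rose by 1.83 ± 0.11 (adjusted p = 7.33e-09), and both of its other probe sets had the same sign, with a mean over probe sets of 0.83. PURPL, a long noncoding RNA induced by p53, stood at 4.53, 3.43 and 3.97 at 3 h and at 6.21, 5.96 and 5.78 at 6 h. Its arrays at 3 h were the most scattered of the genes named so far, and within replicate numbers its differences were 1.69, 2.53 and 1.81. PURPL rose by 2.01 ± 0.31 (adjusted p = 0.000903), and without replicate 2 the adjusted p was 0.0547.

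Several genes that rose act in arrest and negative feedback. CDKN1A, which encodes the cyclin-dependent kinase inhibitor p21, stood at 8.85, 9.31 and 9.06 log2 at 3 h and at 10.41, 10.44 and 10.44 at 6 h. The scatter seen at 3 h was gone at 6 h in these values, and the rise was 1.36 ± 0.13 (adjusted p = 3.08e-06). MDM2, the ubiquitin ligase that degrades p53, rose by 1.10 ± 0.12 (adjusted p = 1.29e-05), and all 9 of its other probe sets had the same sign. PPM1D, the phosphatase that switches off ATM and p53 signalling, stood at 7.56, 7.47 and 7.69 at 3 h and at 8.59, 8.94 and 8.82 at 6 h. These groups did not overlap either, and PPM1D rose by 1.21 ± 0.14 (adjusted p = 2.91e-05). CCNG1, the cyclin G1 gene, had the smallest rise among the called members, 0.38.

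The stress and metabolic branch included the sestrins, which restrain the growth kinase mTORC1. SESN1 rose by 1.59 ± 0.16 (adjusted p = 9.14e-06) from 7.07, 7.45 and 7.23 to 8.66, 8.93 and 8.92, and SESN2 by 0.84 ± 0.13 (adjusted p = 0.00108). TIGAR, a phosphatase that lowers glycolytic flux, rose by 0.94, PHLDA3, an inhibitor of the survival kinase AKT, by 1.04, and the quinone oxidoreductase gene TP53I3 by 0.85. DNA repair was represented by the damage recognition genes DDB2 (0.89 ± 0.11, adjusted p = 8.17e-05) and XPC (0.74) and by RRM2B (1.20), a subunit of ribonucleotide reductase. The death receptor gene FAS rose by 0.71 ± 0.11 (adjusted p = 0.000985), with 9.15, 9.35 and 9.53 at 3 h and 9.99, 10.16 and 10.03 at 6 h. ANKRA2, CYFIP2, TRIAP1 and DCP1B complete the called members, with rises of 1.15, 0.83, 0.83 and 0.76. Without replicate 2, 11 of the 21 called p53 targets lost their call, namely SESN2, FAS, TP53I3, RRM2B, XPC, CCNG1, CYFIP2, PURPL, TRIAP1, ANKRA2 and DCP1B. Without replicate 3 the 9 that lost it were SESN2, TP53I3, RRM2B, XPC, CCNG1, PHLDA3, CYFIP2, TRIAP1 and DCP1B.

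The 23 tested p53 targets that were not called had differences from -0.09 to 1.29 log2. PTCHD4 had the largest, 1.29, with an adjusted p of 0.063. BAX, a pore-forming death protein, differed by 0.29 ± 0.14 (adjusted p = 0.889) and its times overlapped. GADD45A, a growth arrest gene, differed by 0.52 ± 0.17 (adjusted p = 0.329, and 0.00174 with the replicate block), and its times did not overlap. TNFRSF10B, a death receptor, differed by 0.45 (adjusted p = 0.0869, and 0.00187 with the replicate block). FBXW7 and TNFRSF10C had differences below 0, -0.09 and -0.01.

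**Figure D2:**
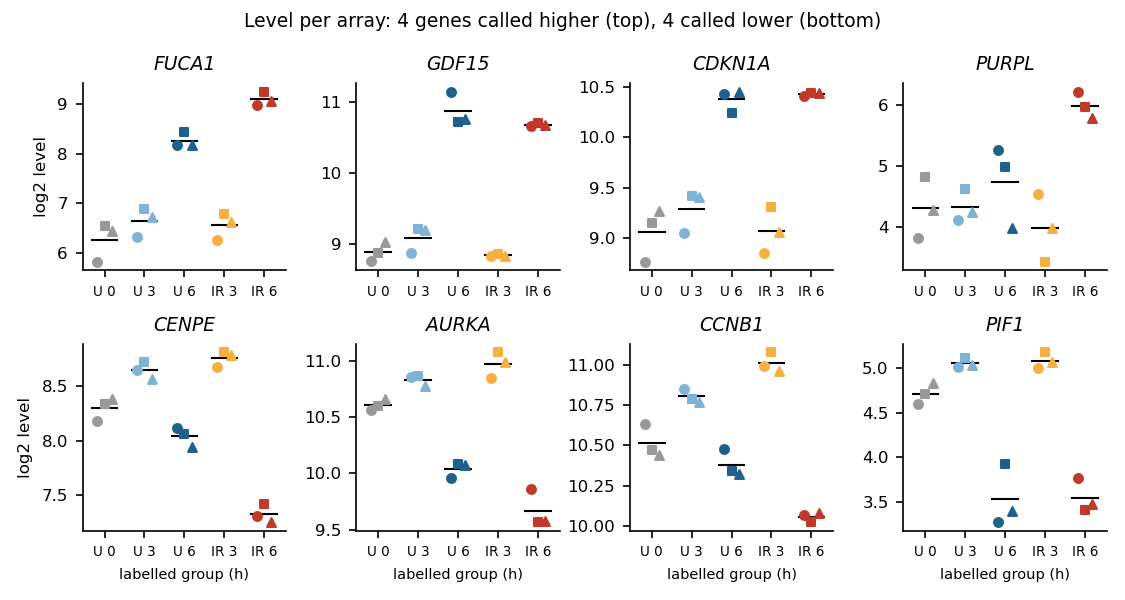
Log2 level per array (y axis) by labelled group and hour (U untreated, IR irradiated), for 4 genes called higher and 4 called lower. Circles, squares and triangles are replicates 1, 2 and 3 and the line is the group mean, and for each gene the irradiated arrays at 6 h do not overlap those at 3 h.

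The genes of G2 and mitosis went the other way, and all 50 listed members were measured and tested. Of the 50, 36 fell and none rose, 48 had a negative difference, and in 44 the times did not overlap. Over all 14369 genes, 8211 had a positive difference and 4.67% lay lower at 6 h without overlap. The median difference was -0.55 log2, beside 0.02 for all genes, of which 0.425% were called lower. With the replicate block 41 members were called lower, and without replicate 2 or replicate 3 the numbers were 16 and 14.

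Among genes of the kinetochore and centromere, CENPE, a motor protein that aligns chromosomes, stood at 8.68, 8.82 and 8.79 log2 at 3 h and at 7.32, 7.42 and 7.25 at 6 h. The lowest array at 3 h was more than 1 log2 above the highest at 6 h. CENPE fell by 1.43 ± 0.10 (adjusted p = 2.41e-08). SGO2, which protects the cohesion of centromeres, fell by 1.28 ± 0.11 (adjusted p = 6.95e-07), from 8.55, 8.41 and 8.71 to 7.33, 7.20 and 7.29. The centromeric histone gene CENPA fell by 0.48 ± 0.10 (adjusted p = 0.0129), among the smaller falls. NDC80 and NUF2, which belong to 1 microtubule-binding complex, fell by 0.61 and 0.42.

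Mitotic kinases and an activator are given next. AURKA, the Aurora A kinase of spindle poles, stood at 10.85, 11.08 and 10.99 at 3 h and at 9.86, 9.57 and 9.57 at 6 h. Replicate 1 was the lowest array at 3 h and the highest at 6 h, and AURKA fell by 1.31 ± 0.08 (adjusted p = 1.54e-08). BORA, through which Aurora A activates PLK1, stood at 8.20, 8.23 and 8.15 at 3 h and at 7.29, 6.74 and 6.54 at 6 h. Replicate 1 was again the highest at 6 h, and BORA fell by 1.34 ± 0.17 (adjusted p = 9.93e-05). PLK1 itself differed by -0.53 ± 0.13 (adjusted p = 0.0792, and 0.00177 with the replicate block) with no overlap. NEK2, a centrosomal kinase, fell by 0.96, and the spindle checkpoint kinases TTK and BUB1B by 0.72 and 0.62.

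Cyclin B1, encoded by CCNB1, activates CDK1 at entry into mitosis. CCNB1 stood at 10.99, 11.08 and 10.96 at 3 h and at 10.07, 10.03 and 10.08 at 6 h. The arrays of each time lay close together, and the times were far apart. It fell by 0.95 ± 0.07 (adjusted p = 6.77e-08), a 1.94-fold change. CDK1 differed by 0.14 ± 0.16 (adjusted p = 0.999) with overlapping times, and its 3 other probe sets had the same sign. CDC20, which switches on the ubiquitin ligase of anaphase, fell by 0.82 ± 0.08 (adjusted p = 9.14e-06), and the phosphatase genes CDC25C and CDC25B, whose products activate CDK1, by 0.81 and 0.52. CCNB2 fell by 0.41, and CCNA2, the cyclin A2 gene, differed by -0.25 (adjusted p = 0.999).

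Spindle and cytokinesis genes completed the group. PSRC1, a microtubule regulator, fell by 1.24 ± 0.09 (adjusted p = 7.94e-08), from 9.12, 9.28 and 9.18 to 8.13, 7.86 and 7.87. The motor genes KIF18A, KIF2C and KIF20A fell by 0.96, 0.89 and 0.88, the spindle pole gene ASPM by 0.87 and CDCA8, a subunit of the chromosomal passenger complex, by 0.87. DEPDC1 fell by 1.06 ± 0.08 (adjusted p = 1.86e-07), and its 3 other probe sets had the same sign. The 14 members that were not called ranged from -0.53 to 0.24, and GAS2L3 and CDK1 were the members with a positive difference. Of the 36 called members, 20 lost their call without replicate 2 and 22 without replicate 3. Of those named above, KIF18A, CENPA, NDC80, NUF2, CDC25B, CDC25C and CCNB2 lost it in both cases, CDCA8 without replicate 2, and TTK and BUB1B without replicate 3. The call of CENPA was also lost without the single arrays of replicates 1 or 3 at 3 h or of replicates 2 or 3 at 6 h.

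A further 35 genes that rose and 25 that fell belonged to no list. FST, the activin antagonist follistatin, rose by 1.45 ± 0.16 (adjusted p = 1.43e-05), NATD1 by 1.58 ± 0.20, and the adhesion gene NECTIN4 by 1.31 ± 0.19. GREB1, known as an estrogen-induced gene, rose by 1.62 ± 0.26 (adjusted p = 0.00118), but its 2 other probe sets had the opposite sign and their mean with it was 0.51. SHANK3, a synaptic scaffold, rose by 1.20, and the pseudogene ANKRD20A12P, whose probes may also bind transcripts of related copies, by 1.22. TLR3, a sensor of double-stranded RNA, rose by 1.26 ± 0.19 and PLCXD2 by 1.27 ± 0.20, and neither was called on the mean of all probe sets (adjusted p = 0.0859 and 0.0982). The mean of probe sets was 0.82 for NATD1 and 0.67 for SHANK3. Without replicate 2 the calls of NECTIN4, PLCXD2, TLR3, ANKRD20A12P and SHANK3 were lost, and without replicate 3 those of GREB1, PLCXD2, ANKRD20A12P and SHANK3. Also higher, and chosen here after their values were seen, were SFN (0.90), the cell cycle inhibitor 14-3-3 sigma, the autophagy gene DRAM1 (0.93), the ceramidase gene ACER2 (1.20) and the growth factor genes TGFA (1.15) and CSF1 (0.62).

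The largest fall outside the lists, and of all genes called, was that of PIF1, a DNA helicase gene. It stood at 5.00, 5.18 and 5.07 at 3 h and at 3.76, 3.40 and 3.47 at 6 h, close to the level limit. PIF1 fell by 1.54 ± 0.17 (adjusted p = 1.34e-05), and its other probe set had the opposite sign, with a mean of -0.73. TNFAIP8L1 fell by 1.19 ± 0.17 (adjusted p = 0.000641), a call lost without replicate 2 or replicate 3. Chosen after their values were seen, GTSE1 (-0.64), KIFC1 (-0.66), CKS2 (-0.60) and RACGAP1 (-0.48) also fell, all with known parts in G2 or mitosis although outside the list.

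Calls in the other 15 lists were few. The immediate early gene ATF3, a stress-induced transcription factor, rose by 1.17 ± 0.21 (adjusted p = 0.00441), from 6.80, 6.00 and 5.72 to 7.40, 7.35 and 7.30. Its probe sets had a mean of 0.67, and its call was lost without replicate 2 or replicate 3. It was 1 of 24 tested in its list, as SESN2 was 1 of 28 in the unfolded protein and integrated stress response and FAS 1 of 22 among BCL2 family and death receptor genes. No member was called among 40 genes of DNA replication, 22 replication-dependent histones (median -0.10) or 37 genes of double-strand break repair (median 0.05). Of the 40 replication genes 36 had a positive difference, beside 8211 of all 14369 genes. The median of the replication genes was 0.09 in the irradiated and 0.09 in the untreated arrays. None was called among 21 NF-kB targets (median 0.15), 26 interferon-stimulated genes (0.06), 18 genes of cholesterol synthesis (0.04), 15 chaperones of the heat shock response (0.01) or 8 metallothionein and zinc response genes (0.17). The same held for 27 matrix and TGF-beta targets, 26 glycolysis genes, 26 genes of ribosome biogenesis and 23 splicing factors, with medians from -0.03 to 0.07. By limma with the replicate block, which called 0.71% of all genes higher and 0.647% lower, 2 replication genes were called higher, 2 histones lower, 1 repair gene lower and 1 metallothionein list gene higher. In the lists with a call, the block gave 2 immediate early genes higher and 1 lower, 2 BCL2 family and death receptor genes higher and 1 stress response gene higher.

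The mean of each main list gave 1 value per array, set against the mean of the arrays labelled untreated at 0 h. The p53 targets stood at 0.06, 0.13 and 0.07 log2 in the irradiated arrays at 3 h and at 0.83, 0.89 and 0.83 at 6 h. At 3 h they lay within the range of the untreated arrays at 0 h, -0.25 to 0.18, and at 6 h above every other array. The low end was replicate 1 at 0 h, and replicates 2 and 3 stood at 0.18 and 0.07. Replicate 1 at 0 h was also low for DNA replication (-0.24) and double-strand break repair (-0.27), but not for histones (-0.03). The median standard deviation over genes was 0.19 log2 at 0 h and 0.11 to 0.14 in the other groups. All values relative to 0 h rest on these 3 arrays. The arrays labelled untreated stood at 0.05 to 0.28 at 3 h and at 0.53 to 0.65 at 6 h, so those at 6 h were above all irradiated arrays at 3 h. The treatment and time labels of the arrays could not be checked independently, and whether any were exchanged was not tested. Every irradiated and untreated value here is given by label.

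For G2 and mitosis the irradiated arrays stood at 0.29, 0.34 and 0.33 at 3 h and at -0.27, -0.32 and -0.33 at 6 h. The untreated arrays stood at 0.26 to 0.33 at 3 h and at -0.20 to -0.18 at 6 h. At 3 h both treatments overlapped above the 0 h range of -0.08 to 0.07, and at 6 h both lay below it without overlapping each other. The irradiated difference between times was 0.77 for the p53 targets and -0.63 for the mitotic genes, of which about equal parts lay above and below the 0 h level in the mitotic genes.

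**Figure D3:**
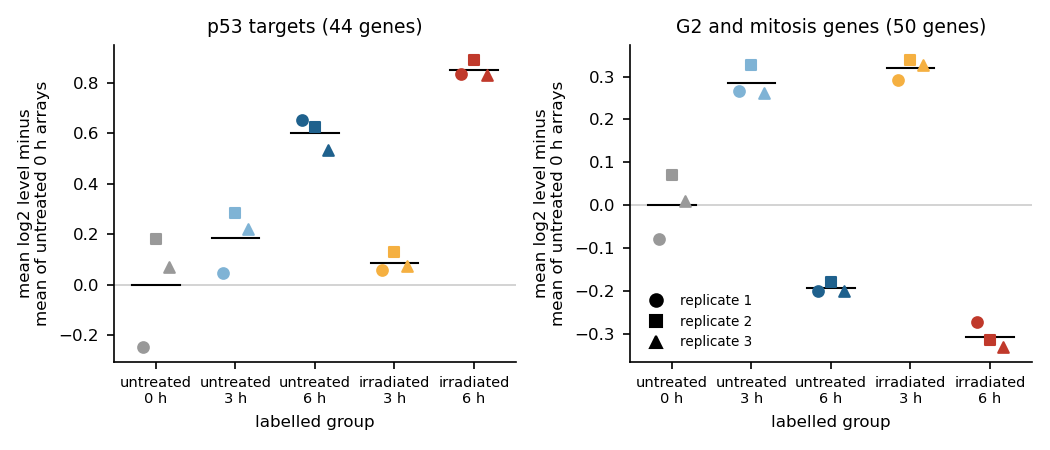
Mean log2 level of the p53 targets (left) and the G2 and mitosis genes (right) per array, minus the mean of the 3 arrays labelled untreated at 0 h (y axis), by labelled group. The p53 targets of the irradiated arrays at 6 h stand at 0.83 to 0.89 and those of the untreated arrays at 6 h at 0.53 to 0.65.

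The same time step was then examined without irradiation, as labelled. Between untreated 3 h and 6 h, 18 genes rose (0.125% of 14369) and 42 fell (0.292%), 60 in all, with 98 under the replicate block, 141 without replicate 1, 15 without replicate 2 and 17 without replicate 3. Of the 18, 10 were p53 targets, and of the 42, 22 were genes of G2 and mitosis. The medians of these lists were 0.30 and -0.41. GDF15 rose by 1.78 ± 0.11 (adjusted p = 1.23e-08), FUCA1 by 1.62 ± 0.18 (adjusted p = 4.17e-05), CDKN1A by 1.08 ± 0.13 (adjusted p = 8.28e-05) and PPM1D by 1.23 ± 0.14 (adjusted p = 4.71e-05). Thus GDF15 stood at 11.14, 10.72 and 10.76 in the untreated arrays at 6 h, above all 3 irradiated arrays of that hour. PIF1 fell by 1.52 ± 0.17 (adjusted p = 3.15e-05) and BORA by 1.62 ± 0.17 (adjusted p = 1.89e-05).

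Of the 57 genes that rose after irradiation, 16 (28.1%) also rose in the untreated arrays, where they were 88.9% of the 18 that did. Of the 61 that fell, 30 (49.2%) also fell there, 71.4% of the 42. The 2 comparisons used different arrays. Because the 57 and the 61 were chosen by their call in the irradiated arrays, the choice itself favours a larger irradiated difference. Over the 57, the median difference was 0.89 log2 irradiated and 0.40 untreated, and 55 were positive in the untreated arrays. Over the 61, the medians were -0.63 and -0.46, and all 61 were negative untreated.

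**Figure D4:**
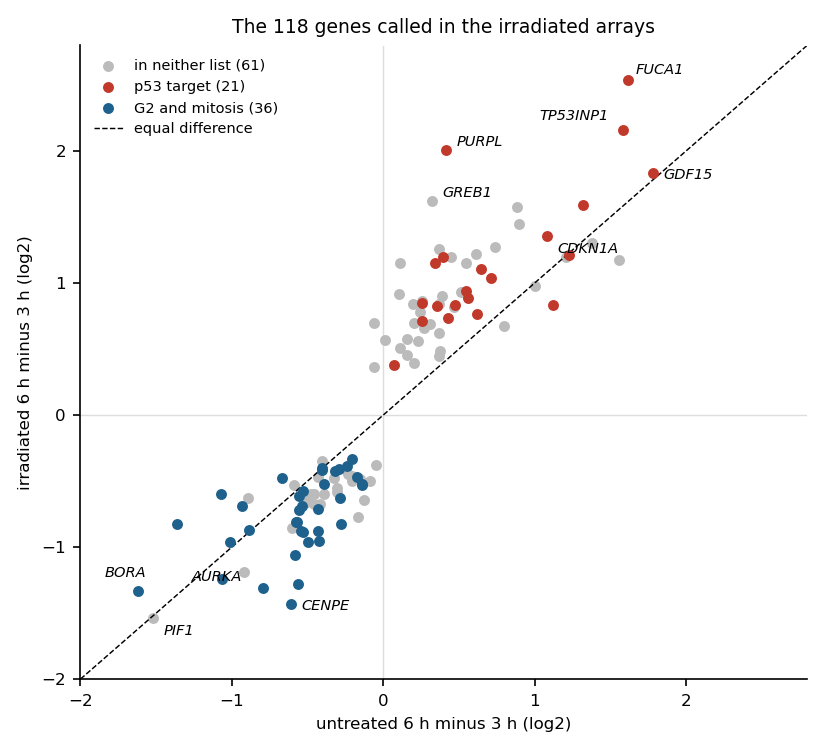
The 118 genes called between irradiated 6 h and 3 h, by their difference in the untreated arrays (x axis, log2) and in the irradiated arrays (y axis, log2), with the line of equal difference. PURPL lies at 0.42 and 2.01 and GDF15, near the line, at 1.78 and 1.83. The choice of genes by the irradiated call favours a larger irradiated difference.

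Whether the irradiated step differed from the untreated one was tested directly. In limma no gene was called among 14369 (0.0%), and 329 had an unadjusted p under 0.05. CENPE had a difference of -0.82 ± 0.14 (adjusted p = 0.107), CCNB1 of -0.53 ± 0.10 (adjusted p = 0.277), PURPL of 1.59 ± 0.43 and FUCA1 of 0.92 ± 0.25 (both adjusted p = 0.9999). GDF15 differed by 0.05 ± 0.15 and PPM1D by -0.02 ± 0.20. Of 44 p53 targets 37 had a positive value (median 0.33), and of 50 mitotic genes 38 had a negative one (median -0.15), beside a median of 0.02 over all genes. With the replicate block 2 genes were called.

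The count of this direct test changed when replicate 1 was left out. Without replicate 1 in any group, 82 of 14369 genes were called for the difference between the steps, 72 positive and 10 negative. Without replicate 2 or replicate 3 the number was 0. Among the 82 were 8 of the 44 p53 targets and 8 of the 50 mitotic genes, of which CDK1 was positive (0.42). Chosen after their values were seen, AURKA then stood at -0.73 ± 0.08 (adjusted p = 0.000347), CENPE at -0.82 ± 0.13 (adjusted p = 0.00508), CCNB1 at -0.52 ± 0.08 (adjusted p = 0.00508), FUCA1 at 0.95 ± 0.16 (adjusted p = 0.00719) and RRM2B at 1.06 ± 0.15 (adjusted p = 0.00208). For these 5 genes the 2 remaining arrays a group thus gave differences past the threshold. The actin difference of replicate 1 was -0.70 and -0.58 in the irradiated arrays at 3 h and 6 h. In the untreated arrays at these times it was -0.67 and -0.43, and -1.07 to -0.92 in replicates 2 and 3. Whether RNA quality had a part in the count was not tested.

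The same step was compared with that of the other lines in a fit of all 75 arrays. From U2OS 4 genes differed (0.0264% of 15146), from BJ 31 (0.206% of 15067), from G361 1 (0.00665% of 15042) and from TK6 128 (0.849% of 15081). The TK6 comparison was added after the values had been seen. With the replicate block these counts were 28, 60, 8 and 344. Without replicate 1 they were 8, 83, 1 and 390, without replicate 2 they were 2, 6, 0 and 25, and without replicate 3 they were 0, 9, 0 and 18. All 4 comparisons share the arrays labelled HepG2.

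FUCA1 was the 1 gene called in all 4 comparisons. Its irradiated 6 h minus 3 h difference of 2.54 in the arrays labelled HepG2 stood beside 0.60 in U2OS, 0.14 in BJ, 0.32 in G361 and 0.46 in TK6. The rise was larger by 1.94 ± 0.36 than in U2OS (adjusted p = 0.00581) and by 2.40 ± 0.36 than in BJ (adjusted p = 4.56e-05). It was larger by 2.22 ± 0.36 than in G361 (adjusted p = 0.000845) and by 2.08 ± 0.36 than in TK6 (adjusted p = 0.000224). Without replicate 3 the call held against BJ but not against the other 3 lines, and without replicate 2 it was lost against U2OS and G361. In BJ the p53 targets had a median difference of 0.06 between these times, in U2OS 0.55, in G361 0.35 and in TK6 -0.07.

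Against BJ, 5 p53-induced genes led the positive differences. GDF15 stood at 1.83 here and -0.48 in BJ, a difference of 2.32 ± 0.33 (adjusted p = 2.12e-05), TP53INP1 at 2.16 and -0.49, SESN1 at 1.59 and -0.51, and PPM1D at 1.21 and -0.77. On the negative side were genes of the integrated stress response, which slows translation. DDIT4 (-0.07 here, 2.02 in BJ), CHAC1 (-0.09 and 1.93) and DDIT3 (-0.05 and 1.45) had small mean differences between times in the arrays labelled HepG2. In replicates 1, 2 and 3 DDIT4 differed by -0.60, 0.09 and 0.31 and CHAC1 by -0.94, 0.34 and 0.33. DDIT4 lay 1.27 log2 above untreated 0 h at irradiated 3 h and 1.20 at 6 h, beside 0.74 and 1.23 in the untreated arrays. MYC, a growth-promoting transcription factor, differed by -0.66 here (adjusted p = 0.0869) against 0.64 in BJ and 0.83 in U2OS. Without replicate 2 the calls against BJ of PPM1D, DDIT3 and MYC were lost, and without replicate 3 those of CHAC1 and MYC, the latter also against U2OS.

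Against TK6 the mitotic genes stood out. CENPE, at -1.43 here, was at 1.28 in TK6, a difference of -2.71 ± 0.29 (adjusted p = 1.38e-09), and PSRC1 was at -1.24 and 1.69, a difference of -2.93 ± 0.29 (adjusted p = 1.24e-10). AURKA, BORA and KIF20A differed by -2.39, -2.25 and -2.02 in the same sense. In other words, these 5 genes were lower at 6 h than at 3 h here and higher at 6 h in TK6. The medians of all mitotic genes were -0.55 here, -0.39 in U2OS, -0.73 in BJ, -0.59 in G361 and 0.34 in TK6. Of the 61 genes that fell here, 53 had a negative difference in U2OS, 56 in BJ, 60 in G361 and 6 in TK6. Over all genes tested, 6549 of 14654 were negative in U2OS, 6783 of 14467 in BJ, 7655 of 14487 in G361 and 6890 of 14227 in TK6. Of the 57 that rose, 54 of 55 tested were positive in U2OS, 51 of 55 in G361, 33 of 51 in BJ and 31 of 51 in TK6. Positive over all genes tested were 8104 of 14654 in U2OS, 6832 of 14487 in G361, 7683 of 14467 in BJ and 7337 of 14227 in TK6.

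**Figure D5:**
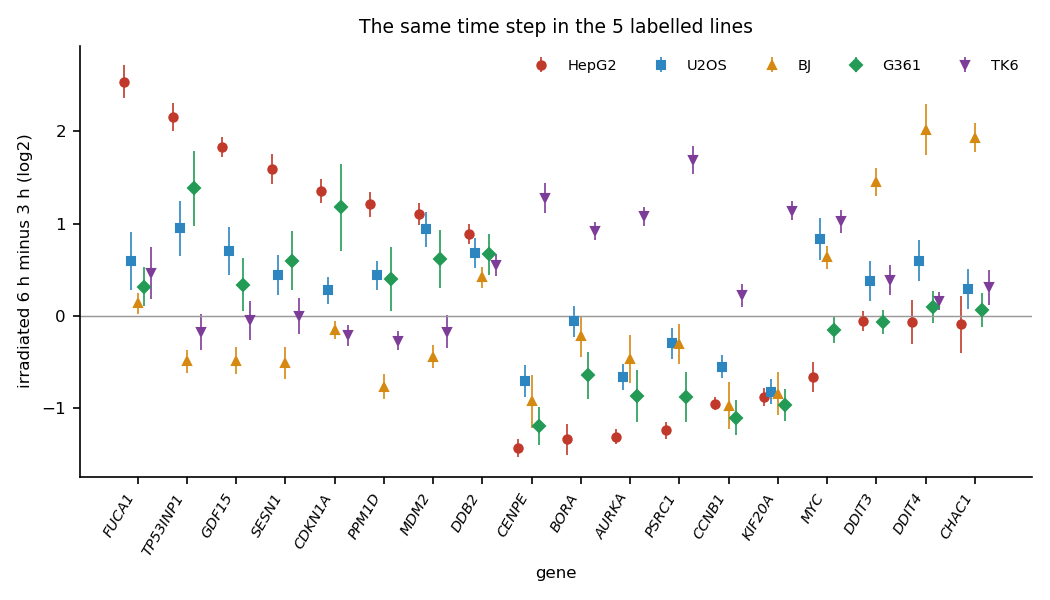
Irradiated 6 h minus 3 h difference (y axis, log2, bars of 1 standard error) of 18 named genes (x axis) in the 5 labelled lines, 3 arrays against 3 in each. FUCA1 stands at 2.54 in HepG2 and at 0.14 to 0.60 in the other 4 lines, and CENPE at -1.43 in HepG2 and at 1.28 in TK6.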

How the data were processed

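Affymetrix-type arrays of 75 samples (25 groups of 3, in 5 lines) were used as deposited by the authors, as log2 values. RMA produced them, per the submitters' processing notes, and its version is not given in the sources here. Of 54675 probe sets, 41097 had 1 gene symbol, 1801 had several and 11777 were unnamed here, and the last 2 kinds were left out. Each of 19775 genes was represented by its probe set with the highest mean over 75 arrays. Genes were tested where the mean over the 15 arrays labelled HepG2 exceeded the 40th percentile of all probe sets, or, between lines, in either line.

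Linear models with group means were fitted to the 15 arrays (between lines, to all 75) in R 4.3.3 with limma 3.58.1 (eBayes, variance trend on). Adjustment of p-values followed Benjamini-Hochberg across the tested genes. Scripts were tested on simulated data. Errors are standard errors of the fit. A gene rose or fell where the adjusted p was under 0.05. The deviations of arrays with the same replicate number correlated at 0.49, 0.17 and 0.30 irradiated and at 0.51, 0.17 and 0.31 untreated. The highest correlation with another number was -0.28, 0.13 and 0.17 irradiated and -0.28, 0.17 and 0.18 untreated. For replicate 2 these values were thus close to those of the same number. The main fit had no replicate block. The pairing comes from the titles' replicate numbers.

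The gene lists and the members were chosen with earlier results of these data known. Named genes were the 15 largest rises and 15 largest falls without overlap, at most 6 called members per list, a fixed set of genes, and at most 5 called genes in each direction of a difference between steps or lines. List members given to show a value were named besides. The p53 targets BTG2, BBC3 and FDXR were not analysed here, and TNFRSF10A lay under the limit. Promoters came from RefSeq tables (GRCh38.p14). Alternatives were no level filter, quantile normalization, the mean of probe sets, no trend, the replicate block, fits of other sets of arrays, and leaving out replicates.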

Additional observations from a re-analysis of the deposited data

Results flagged for a closer look

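The irradiated 6 h minus 3 h difference in the arrays labelled HepG2 departed from that of another labelled line for the following genes, by a limma test of the difference itself in a fit of all 75 arrays. FUCA1 was larger in HepG2 by 1.94 log2 than in U2OS, 2.40 than in BJ, 2.22 than in G361 and 2.08 than in TK6. TP53INP1 was larger by 2.65 than in BJ and 2.33 than in TK6, and GDF15 by 2.32 and 1.88. SESN1 was larger by 2.10 and PPM1D by 1.98 than in BJ, and the autophagy gene DRAM1 by 1.38 and the AKT inhibitor gene PHLDA3 by 1.51 than in TK6.

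Negative differences (HepG2 minus the other line) were found for CENPE (-2.71), BORA (-2.25), AURKA (-2.39), PSRC1 (-2.93) and KIF20A (-2.02) against TK6. MYC was lower by this measure against U2OS (-1.50) and BJ (-1.30), as were PCDH17 (-1.33) and the antisense RNA UNC5B-AS1 (-1.20) against U2OS. Against BJ the same held for DDIT3 (-1.50), DDIT4 (-2.09), CHAC1 (-2.02) and RASGRP1 (-1.24). PCDH17 and RASGRP1 lay under the level limit in the arrays labelled HepG2. No group had enough arrays for a check of single outlying arrays. Without replicate 2 the calls of GDF15 against TK6, UNC5B-AS1 and RASGRP1 were lost, and without replicate 3 those of PHLDA3, PCDH17, UNC5B-AS1 and RASGRP1. Those of UNC5B-AS1 and RASGRP1 were also lost without replicate 1, and in a fit of the 30 arrays of both lines none of the U2OS differences was called.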

How the results depend on the processing

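Between irradiated 6 h and 3 h, 195 genes were called with the replicate block, 66 in a fit of all 75 arrays (14 mitotic genes) and 31 to 421 with replicates left out (p53 targets 10 to 33, mitotic genes 14 to 42). The mean p53 difference was 0.67 on the mean of probe sets, and the mitotic one lay between -0.66 and -0.61 without 1 replicate. The untreated count was 38 with no trend, 98 with the replicate block, 27 in the fit of 75 arrays and 15 to 141 without replicates. The difference between steps gave 1 call after quantile normalization, 2 with the replicate block and 0 to 82 without replicates. Counts against U2OS were 12 after quantile normalization, 10 on the mean of probe sets, 28 with the replicate block, 0 in a fit of the 30 arrays of both lines and 0 to 8 without replicates. Against BJ they were 60 with the replicate block, 53 in the 30-array fit and 6 to 83 without replicates. Against G361 they were 6 on the mean of probe sets, 8 with the replicate block and 0 to 1 without replicates. Against TK6, a comparison added after the data were seen, they were 344, 224 in the 30-array fit and 18 to 390. The causes were not tested. Of 42 named genes tested between the irradiated times, 38 were called, 22 of them in each of 16 settings, and 0 reversed. With 3 arrays a group, the number of arrays limits all calls.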

Other observations

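The level of a gene at the earlier irradiated time can also be set against the arrays labelled untreated at 0 h. FUCA1 lay 0.29 ± 0.18 log2 above that level at 3 h after irradiation and 2.83 ± 0.18 at 6 h (SE, n = 3 arrays a group). CDKN1A lay at 0.01 ± 0.13 and 1.37 ± 0.13, and MDM2 at 0.08 ± 0.12 and 1.18 ± 0.12. The arrays labelled untreated also lay above 0 h. FUCA1 lay there at 0.38 at 3 h and 1.99 at 6 h, CDKN1A at 0.23 and 1.32, and MDM2 at 0.40 and 1.05. Of the 50 mitotic genes, 45 had an irradiated mean above the 0 h level at 3 h and below it at 6 h, and 4 were above it at both times. Over all genes this pattern was not counted. The mean of these 50 genes in the untreated arrays also lay above 0 h at 3 h (0.29) and below it at 6 h (-0.19). After irradiation CCNB1 stood at 0.50 ± 0.07 and -0.46 ± 0.07, CENPE at 0.46 ± 0.10 and -0.98 ± 0.10 and AURKA at 0.36 ± 0.08 and -0.94 ± 0.08. In the untreated arrays CCNB1 stood at 0.29 and -0.14, CENPE at 0.34 and -0.26 and AURKA at 0.22 and -0.57.

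Relative to untreated 0 h, the 40 genes of DNA replication had list means of -0.03 to 0.09 log2 in the irradiated arrays at 3 h. At 6 h these means were 0.05 to 0.22. The untreated arrays stood at 0.06 to 0.24 at 3 h and at 0.21 to 0.28 at 6 h. The mean of the replication-dependent histones was -0.05 to 0.06 at 3 h after irradiation and -0.17 to -0.10 at 6 h. In the untreated arrays it was -0.04 to 0.15 at 3 h and -0.20 to -0.06 at 6 h.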
